A study of Mus musculus with 6 samples.

Results

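The 39 genes described here encode proteins of the synaptic vesicle, of the active zone and of the endocytic machinery that retrieves vesicles. They were chosen by gene symbol in the GENCODE M21 annotation, out of 35523 genes with transcripts in the deposited files, by a rule that uses no measured value. The list was drawn up with earlier results of these data known. All 39 passed the filter on low counts, together with 17057 other genes. By role they are 3 vesicle phosphoproteins, 4 vesicle membrane proteins, 4 SNAREs, 5 synaptotagmins, 3 SNARE regulators, 2 proteins of SNARE disassembly, 3 vesicle GTPases, 11 active zone proteins and 4 endocytic proteins.

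The forebrain transcriptome was compared between 3 Slc13a4+/- mice, in which a single allele of the sulfate transporter gene Slc13a4 is deleted, and 3 wild-type mice. All 6 were C57BL/6 animals at postnatal day 20 and none was treated. The Slc13a4+/- mice carry the submitters' names Nas2Del_Het_1024, Nas2Del_Het_1025 and Nas2Del_Het_1027, and the wild-type mice are Nas2Del_WT_1016, Nas2Del_WT_1018 and Nas2Del_WT_1026. Values below are given in that order. Heterozygous males had been mated with wild-type females, and the paper describes the wild-type controls as littermates. Neither litter nor sex is known here for any animal. The whole forebrain was taken, so fewer cells of a type and less RNA per cell cannot be told apart.

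A synapse releases transmitter when a vesicle that is docked at the active zone fuses with the plasma membrane. Vesicular synaptobrevin pairs with syntaxin and SNAP-25 of the plasma membrane to form the SNARE complex, synaptotagmin senses calcium, and complexin holds and primes the complex. Active zone scaffolds such as RIM, ELKS, liprin-alpha, bassoon and piccolo, together with the priming factor Munc13, place vesicles at the release site, and dynamin and its partners recover the membrane afterwards. Most of these proteins come in families of paralogs that different neurons use in different proportions, and several genes also make alternative forms by splicing.

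The libraries held 60340337 to 80410582 estimated counts each. Slc13a4 itself was at 5.6, 6.57 and 5.41 CPM (counts scaled to the library size) in the Slc13a4+/- mice and at 10.4, 9.36 and 8.23 CPM in the wild-type mice. The groups did not overlap, with a log2 fold change of -0.67 (SE 0.11), although the adjusted p over all genes was 0.5 in edgeR. The 10 general neuronal markers were detected and summed to 3610 to 3720 TPM (counts scaled to transcript length and library size) in the Slc13a4+/- mice and 3610 to 3750 TPM in the wild-type mice. Markers of 4 other populations had lower sums in every Slc13a4+/- mouse: microglia at 444 to 446 against 464 to 492 TPM, choroid plexus at 751 to 863 against 900 to 905 TPM, astrocytes at 2680 to 2770 against 2810 to 2890 TPM, and the olfactory bulb at 120 to 123 against 128 to 155 TPM. Most of the choroid plexus sum was Ttr, at 717 to 827 against 859 to 868 TPM. Most of the olfactory bulb sum was Calb2, at 96.5 to 105 against 106 to 126 TPM. In TPM, Kl, Clic6, Folr1, Otx2 and Slc4a5 of the choroid plexus overlapped between genotypes. So did every olfactory bulb marker except Calb2, namely Th, Cdhr1, Eomes, Tbx21 and Doc2g. P2ry12, Tmem119, C1qb and Csf1r of the microglia and Aqp4, Slc1a2, Slc1a3 and Gja1 of the astrocytes overlapped as well. No fold change of the choroid plexus, olfactory bulb or microglia list was above 0. Of the 8 astrocyte markers 1, Aldh1l1, was above 0, and its TPM was higher in every Slc13a4+/- mouse. Markers of the cerebellum and hindbrain summed to 19.4 to 26.3 TPM over all 6 mice. Sums of oligodendrocyte markers overlapped, at 7840 to 9120 against 8740 to 9580 TPM, with 0 of 8 fold changes above 0 (median -0.129 on the log2 scale). Endothelial sums overlapped too, at 167 to 185 against 175 to 197 TPM, with 2 of 8 above 0 (median -0.093). The part of these differences in the values below was not tested.

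In edgeR the fitted level of every vesicle and active zone gene in the Slc13a4+/- forebrain lay within 1.2-fold of wild-type, although not every interval did. None of the 39 was called by edgeR at an adjusted p under 0.1, the threshold used by the study, where 0.00585% of all genes tested were called. None had an unadjusted p under 0.05, which 9.15% of all genes tested had, and the smallest was 0.0706 for Sv2b. In none did the 3 Slc13a4+/- values all lie on the same side of the 3 wild-type values, against 15.0% of all genes (7.26% above and 7.7% below). DESeq2 with length offsets called 0 of the 39 and 0.487% of all genes, with 3 of the 39 (7.69%) at an unadjusted p under 0.05, beside 6.85% of all genes.

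In edgeR without length offsets, fold changes ran from -0.12 for Bsn to 0.09 for Unc13b on the log2 scale, 16 above 0 and 23 below. Their median was -0.008, beside -0.0045 for all genes tested. The 95% interval of every one of the 39 fold changes included 0. For 36 of the 39 the interval lay within 1.2-fold in either direction (0.26 on the log2 scale), and the widest reached -0.4 for Bsn. The other 2 with wider intervals were Pclo and Syn1.

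**Figure D1:**
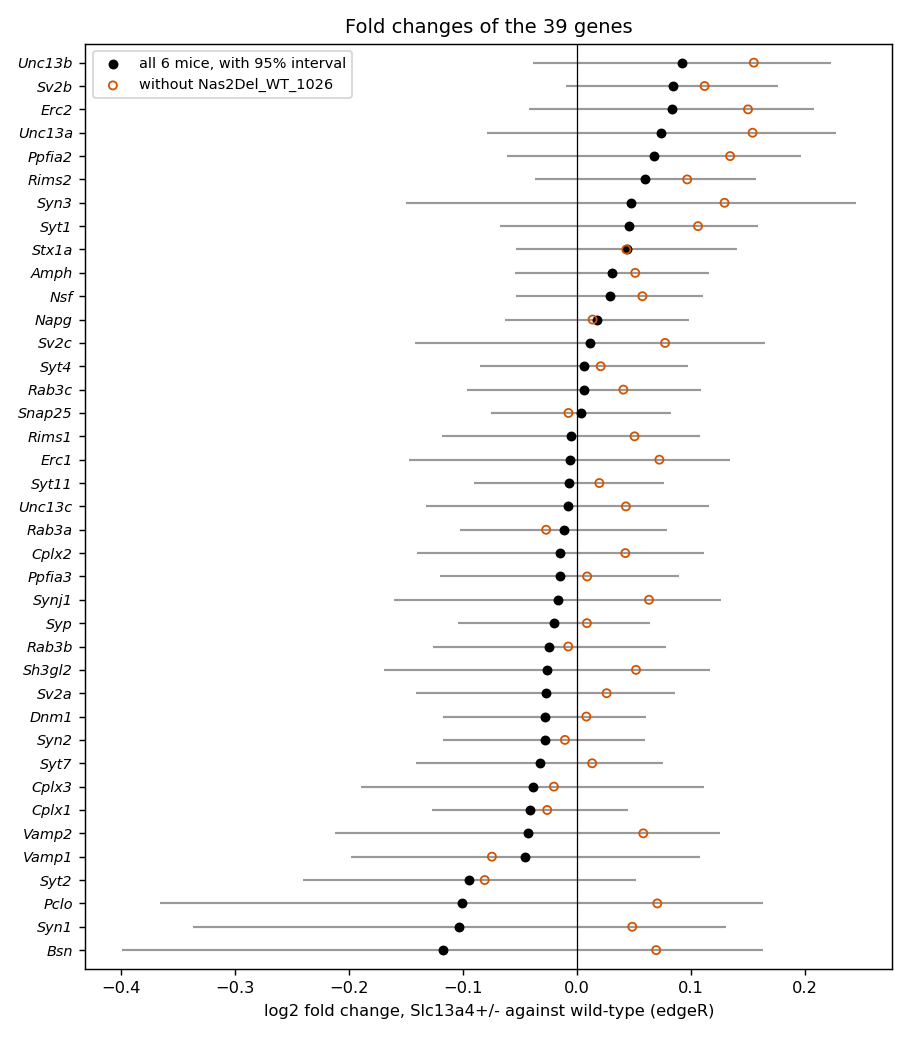
Log2 fold change of each of the 39 genes, Slc13a4+/- against wild-type, from edgeR. Black points and bars give the value and 95% interval over 6 mice, and open circles give the value without Nas2Del_WT_1026. All bars cross 0, and 31 open circles lie above 0 against 16 black points.

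Per length, the 39 genes spanned a 178-fold range, from Snap25 at 1867 TPM to Syn3 at 10.5 TPM as means of the 6 mice. In 26 of them the mean was at least 100 TPM, and their median percentile among the genes tested was 92.3. After Snap25 the most abundant were Syp at 926 TPM, Syt1 at 831 TPM, Rab3a at 718 TPM, Dnm1 at 687 TPM and Nsf at 587 TPM. The lowest after Syn3 were Cplx3 at 16.2 TPM, Sv2c at 17.4 TPM, Unc13c at 24.1 TPM and Unc13b at 27.3 TPM. TPM gives much weight to short transcripts: the 383-base transcript Syt2-203 held 40.6% of the TPM of Syt2, so the 35.8 TPM of this gene rests in part on how Salmon divided its reads.

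**Figure D2:**
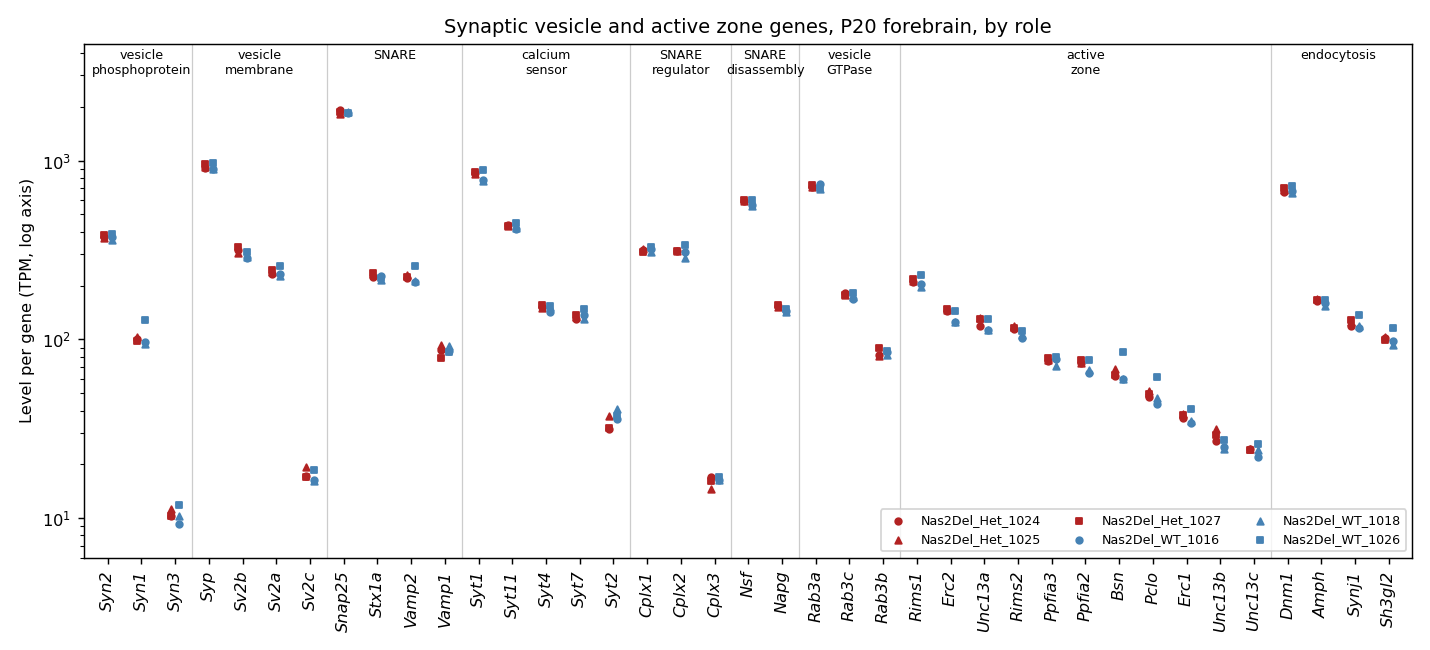
Level of the 39 genes in each of the 6 mice, in TPM on a log axis, grouped by role. The group labelled calcium sensor holds the synaptotagmins. Red symbols are Slc13a4+/- mice and blue symbols wild-type mice. Within a gene the 6 points lie close together next to the 178-fold range between genes, and the square of Nas2Del_WT_1026 is the highest in many active zone genes.

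Snap25 encodes SNAP-25, the plasma membrane SNARE that supplies a pair of helices to the complex. It measured 1714, 1611 and 1636 CPM in the Slc13a4+/- mice and 1657, 1667 and 1623 CPM in the wild-type mice. The groups overlapped almost completely, and the log2 fold change was 0.0038 (95% interval -0.075 to 0.083). Snap25 has a pair of mutually exclusive copies of exon 5, named 5a and 5b, which lie next to each other on chromosome 2. In mouse brain the 5a form is the earlier one and is largely replaced by the 5b form after birth. Both exons are coding and have 118 bases, and they differ at 31 bases (73.7% identity). They are shown because they are what distinguishes the coding sequence of the forms. Exon 5a lies at chr2:136769743-136769860 and exon 5b at chr2:136770057-136770174 of GRCm38, both on the plus strand, and the bases that differ between them are in capitals.
Snap25 exon 5a: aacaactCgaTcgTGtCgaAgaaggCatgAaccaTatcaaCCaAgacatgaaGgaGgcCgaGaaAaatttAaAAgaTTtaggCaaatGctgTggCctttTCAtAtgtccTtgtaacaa
Snap25 exon 5b: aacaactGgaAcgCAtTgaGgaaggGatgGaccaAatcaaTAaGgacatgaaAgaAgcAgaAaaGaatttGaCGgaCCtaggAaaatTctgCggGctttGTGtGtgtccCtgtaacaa

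A single annotated transcript carried each exon, Snap25-202 for 5a and Snap25-201 for 5b. The 5b form made up 88.7%, 88.8% and 88% of the TPM of both forms in the Slc13a4+/- mice and 88.2%, 88.3% and 88% in the wild-type mice. Its mean share was 88.5% ± 0.47 (SD, n = 3) in Slc13a4+/- and 88.2% ± 0.14 (SD, n = 3) in wild-type forebrain. The shares overlapped and an exact two-sided permutation test gave p = 0.4, where 0.1 is the smallest p that 3 against 3 allows. By estimated counts the 5b share was 94.6% and 94.4%, since Snap25-201 is annotated with 2116 bases and Snap25-202 with 1014. That difference is mostly in the annotated 3′ end, so the absolute share depends on the unit, and the permutation p was 0.4 in both by the same exact test. The third transcript, Snap25-203, retains an intron and held 355, 474 and 335 counts in the Slc13a4+/- mice and 207, 255 and 303 counts in the wild-type mice (edgeR unadjusted p = 0.06319).

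Among the other SNAREs, the plasma membrane syntaxin Stx1a was at 207, 212 and 214 CPM against 214, 196 and 204 CPM, with overlapping groups and a log2 fold change of 0.04 (SE 0.04). The vesicle SNARE Vamp2, the main synaptobrevin of the forebrain, was at 213, 220 and 212 CPM against 205, 208 and 251 CPM. Its highest value belonged to Nas2Del_WT_1026, and its log2 fold change was -0.04 over 6 mice and 0.06 without that mouse. Vamp1, its paralog, had a log2 fold change of -0.05 and values of 98.1 to 117 CPM in Slc13a4+/- and 107 to 118 CPM in wild-type mice. Nsf, the ATPase that takes used SNARE complexes apart, and Napg, which encodes its adaptor gamma-SNAP, were among the 5 genes with the smallest spread within genotypes. Nsf measured 1034, 1014 and 1029 CPM against 993, 979 and 1044 CPM. Napg measured 206, 198 and 207 CPM against 202, 201 and 199.8 CPM, and its SD of log2 CPM within genotypes was 0.02.

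The complexins, which bind the assembled SNARE complex, all had fold changes slightly below 0, between -0.04 and -0.01 on the log2 scale. Cplx1 was at 311, 309.8 and 298 CPM against 316, 307 and 321 CPM, so the groups overlapped. Of the 5 synaptotagmins, Syt1, the fast calcium sensor of most forebrain synapses, was at 1671, 1635 and 1668 CPM against 1553, 1528 and 1738 CPM. All 3 Slc13a4+/- values lay between those of Nas2Del_WT_1026 and of the other wild-type mice. Syt2, the fast sensor of many inhibitory and hindbrain synapses, had the lowest log2 fold change of the 5, -0.09 (SE 0.06), from 64.9, 69.1 and 58.7 CPM against 64.6, 71.3 and 69.8 CPM. DESeq2 without Nas2Del_Het_1025 called Syt2 lower, at an adjusted p of 0.0724, where that fit called 0.246% of all genes. With all 6 mice the DESeq2 adjusted p of Syt2 was 0.372. Length offsets moved its log2 fold change to -0.21 in DESeq2 and -0.21 in edgeR, and leaving out Nas2Del_Het_1027 moved it to -0.03. Syt4, Syt7 and Syt11 had fold changes of 0.01, -0.03 and -0.01 on the log2 scale.

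In the vesicle membrane, Sv2b had the smallest p of the 39. SV2 proteins are glycoproteins of the vesicle that tune its readiness for release. Sv2b was at 788, 749 and 798 CPM in the Slc13a4+/- mice and at 717, 723 and 762 CPM in the wild-type mice. Only the wild-type mouse Nas2Del_WT_1026 reached into the Slc13a4+/- range, and the log2 fold change was 0.08 (95% interval -0.009 to 0.18, edgeR adjusted p = 0.581). Sv2a, the paralog that binds the antiepileptic levetiracetam, was at 466, 469 and 483 CPM against 469, 459 and 516 CPM. Its log2 fold change was -0.03 and turned to 0.03 without Nas2Del_WT_1026. Sv2c and Syp, which encodes the abundant vesicle protein synaptophysin, had log2 fold changes of 0.01 and -0.02.

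The synapsins coat vesicles and tether them in the reserve pool. Syn1 was at 149, 152 and 143 CPM against 145, 141 and 190 CPM, and 1 wild-type mouse, Nas2Del_WT_1026, stood above the other 5. The log2 fold change of Syn1 was -0.1 (SE 0.1) and became 0.05 when that mouse was left out. Syn3 was at 11.3, 12.6 and 11.6 CPM against 10.1, 11.5 and 12.7 CPM, a wide spread for a low level. Syn2 lay between 584 and 614 CPM in Slc13a4+/- and between 592 and 627 CPM in wild-type mice. The 3 RAB3 GTPases, which tie vesicles to RIM, had fold changes between -0.02 and 0.01 on the log2 scale.

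Over 6 mice in edgeR without length offsets, the highest and the lowest fold changes of the set were those of Unc13b and Bsn, both among the 11 active zone genes. With length offsets, or without Nas2Del_WT_1026, the lowest was that of Syt2. Unc13b, which encodes Munc13-2, was at 64.2, 69.3 and 66.6 CPM against 60, 59.8 and 67.8 CPM. The fitted log2 fold change of Unc13b was 0.09 (SE 0.06). With length offsets it was 0.163 in DESeq2 and 0.165 in edgeR. Unc13a, which encodes Munc13-1, the principal priming factor of forebrain excitatory synapses, was at 356, 388 and 388 CPM against 341, 338 and 397 CPM. In both genes Nas2Del_WT_1026 lay within or above the Slc13a4+/- range, and the other wild-type mice lay below it.

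Erc2, which encodes the ELKS family scaffold CAST, had nearly equal values in the Slc13a4+/- mice, 282, 279.96 and 280 CPM. The wild-type mice were at 253, 253 and 289 CPM, so the groups overlapped through Nas2Del_WT_1026 (log2 fold change 0.08, SE 0.05). Its paralog Erc1 was at 108, 113 and 109.5 CPM against 105, 104 and 122 CPM. Rims2, a RIM scaffold that recruits calcium channels, was at 188, 189 and 184 CPM against 173, 177 and 188 CPM. The liprin-alpha gene Ppfia2 was at 188, 184 and 190 CPM against 167, 174 and 195 CPM. In Erc2, Rims2 and Ppfia2 alike, Nas2Del_WT_1016 and Nas2Del_WT_1018 were the 2 lowest mice.

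Bsn and Pclo encode bassoon and piccolo, the giant scaffolds of the active zone, and had the widest spread of the 39. Bsn was at 458, 495 and 456 CPM against 453, 443 and 633 CPM. Pclo was at 320, 339 and 320 CPM against 298, 324 and 428 CPM. In both, the sign of the fold change depended on Nas2Del_WT_1026: with it the log2 values were -0.12 and -0.1, and without it 0.07 and 0.07. Rims1, Ppfia3 and Unc13c had log2 fold changes of -0.005, -0.01 and -0.008. In the endocytic group, Amph, which encodes amphiphysin, was at 245, 248 and 244 CPM against 241, 233 and 247 CPM, and the 4 genes lay between -0.03 and 0.03 on the log2 scale.

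The spread of these genes was not shared evenly between mice. The median SD of log2 CPM within genotypes was 0.07 for the 39 and 0.08 for all genes tested, and 23 of the 39 lay below the latter. Nas2Del_WT_1026 had the highest value of the 6 mice in 26 of the 39 and the lowest in 0. Nas2Del_WT_1016 and Nas2Del_WT_1018 together had the lowest value in 30. The 3 Slc13a4+/- mice lay between: they were the highest in 1, 3 and 4 genes and the lowest in 1, 5 and 3.

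Set against the mean of the other wild-type mice, Nas2Del_WT_1026 was higher in 34 of the 39, with a median log2 difference of 0.11. Over all genes tested that median was -0.0026, and 49.2% were higher. The largest differences were 0.5 for Bsn, 0.46 for Pclo, 0.41 for Syn1 and 0.28 for Vamp2, and Bsn stood at the 98.2 percentile of all genes. Snap25 and Rab3a did not share the shift, at -0.04 and -0.05, nor did Vamp1 at -0.09. Against Nas2Del_WT_1016 and Nas2Del_WT_1018 the Slc13a4+/- mean was higher in 31 of the 39 (median 0.04), and against Nas2Del_WT_1026 it was higher in 6 (median -0.07).

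**Figure D3:**
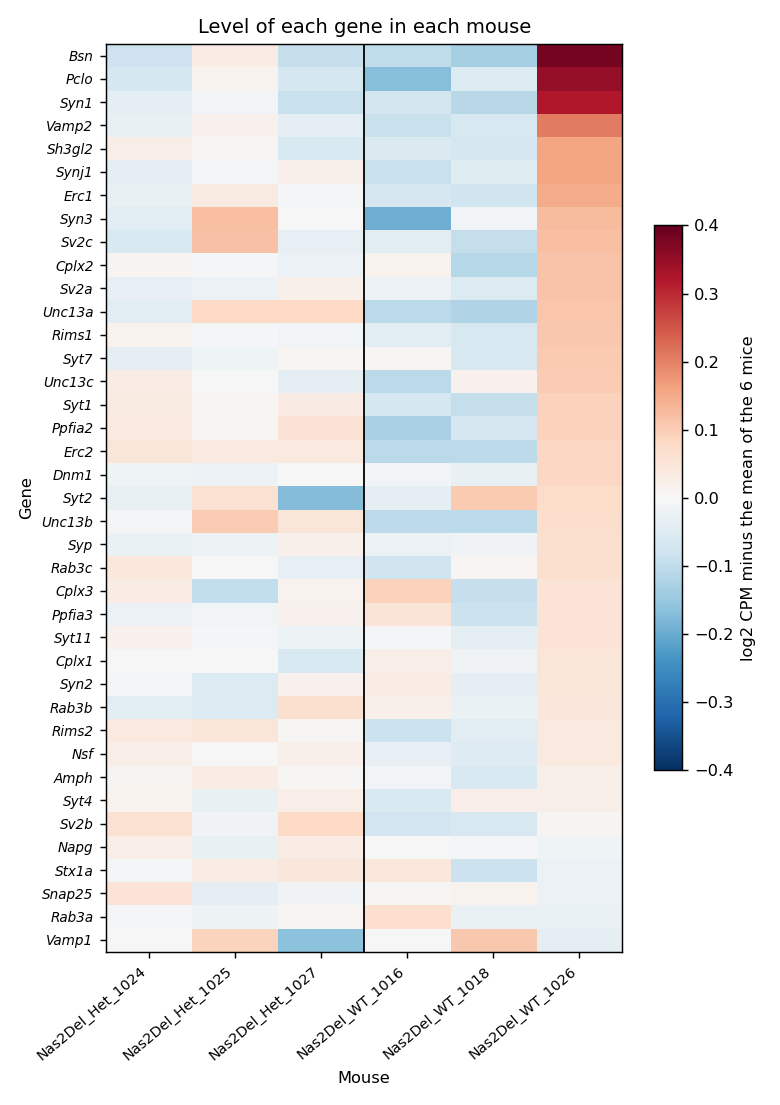
Log2 CPM of each of the 39 genes in each mouse, minus the mean of the 6 mice, ordered by the value in Nas2Del_WT_1026. Red is above and blue below the mean, and the black line separates Slc13a4+/- (left) from wild-type mice. The column of Nas2Del_WT_1026 is above the mean in 34 genes, and those of Nas2Del_WT_1016 and Nas2Del_WT_1018 in 11 and 6.

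Nas2Del_WT_1026 also had the highest sum over markers of cortical and hippocampal excitatory neurons, 993 TPM, where the other 5 mice had 881 to 943 TPM. Most of that difference was Camk2a, at 392 TPM beside 308 to 355 TPM, and without this gene the sum was 602 TPM beside 572 to 603 TPM. It was the highest mouse in 6 of the 10 markers. Its sum over hypothalamic markers was the lowest, 163 TPM beside 185 to 215 TPM, and its sum over immediate early genes was the highest, 658 TPM beside 422 to 648 TPM. Its sums were also the highest for astrocytes (2888 TPM) and endothelium (197 TPM) and the lowest for blood (1784 TPM). Its general neuronal sum was 3748 TPM beside 3611 to 3717 TPM. The part of these differences in the shift was not tested.

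Without Nas2Del_WT_1026, the median log2 fold change of the 39 became 0.04 and 31 were above 0. Then 7 had an unadjusted p under 0.05 in edgeR, all higher in Slc13a4+/-: Erc2, Syt1, Ppfia2, Unc13b, Unc13a, Sv2b and Rims2. These are 17.9% of the 39, near the 18.0% of all genes with such a p in this fit. Erc2 was called, with a log2 fold change of 0.15 (SE 0.03, adjusted p = 0.0916). That is 1 of 39 (2.56%) where 1.29% of all genes were called. DESeq2 without this mouse called 5 of 39 (12.8%), where it called 6.54% of the genes with an adjusted p. They were Erc2, Syt1, Rims2, Ppfia2 and Unc13b, all higher, with adjusted p from 3.11e-05 for Erc2 to 0.062 for Unc13b. These calls rest on 2 wild-type mice.

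The balance between paralogs was compared as the ratio of TPM of the 2 most abundant members in each of 11 families. Only genes of the list described here were counted as members, and other paralogs were left out. Of those left out, Vamp3 was at 101 to 117 TPM, above Vamp1 at 78.7 to 93.1 TPM, and Unc13d was at 17.5 to 22.6 TPM. In 8 of them the ratios of the genotypes overlapped. Syn2 exceeded Syn1 3.66-fold as a mean of 6 mice, with the lowest ratio, 3.03, in Nas2Del_WT_1026. Rab3a exceeded Rab3c 4.07-fold, Vamp2 exceeded Vamp1 2.61-fold, Syt1 exceeded Syt11 1.93-fold and Rims1 exceeded Rims2 1.9-fold. Bsn exceeded Pclo 1.33-fold, and Cplx1 with Cplx2 (1.02-fold) and Ppfia3 with Ppfia2 (1.06-fold) were near balance. As shares of the listed members of their family, Syn2 held 76.8%, Rab3a 73.4% and Unc13a 70.5%. By the same measure Syn3, Cplx3 and Sv2c held 2.15%, 2.52% and 3.11%.

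In 3 of the 11 families the ratios did not overlap. For scale, the levels of 15.0% of all genes tested did not overlap, and ratios of other gene pairs were not computed. Erc2 exceeded Erc1 3.96-, 3.82- and 3.91-fold in the Slc13a4+/- mice and 3.68-, 3.59- and 3.52-fold in the wild-type mice, a higher ratio in each of these Slc13a4+/- mice (log2 difference 0.12). Sv2b exceeded Sv2a 1.36-, 1.28- and 1.33-fold in the Slc13a4+/- mice and 1.22-, 1.28- and 1.19-fold in the wild-type mice (log2 difference 0.11). Here the closest mice of the groups, Nas2Del_Het_1025 and Nas2Del_WT_1018, both round to 1.28. Unc13a exceeded Unc13b 4.41-, 4.19- and 4.45-fold against 4.54-, 4.65- and 4.8-fold, a lower ratio in every Slc13a4+/- mouse (log2 difference -0.1). Each of the 3 reached the exact two-sided permutation p of 0.1, the smallest possible, and 0.367 after Benjamini-Hochberg adjustment over the 11 families. In CPM, and over protein-coding transcripts, the ratios of Erc2 to Erc1 and of Sv2b to Sv2a again did not overlap. Under both settings Unc13c took the place of Unc13b as the second most abundant Munc13 gene of the list. The ratio of Unc13a to Unc13c overlapped between genotypes. In CPM the ratio of Unc13a to Unc13b overlapped too, so its separation was seen in TPM and not in CPM.

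**Figure D4:**
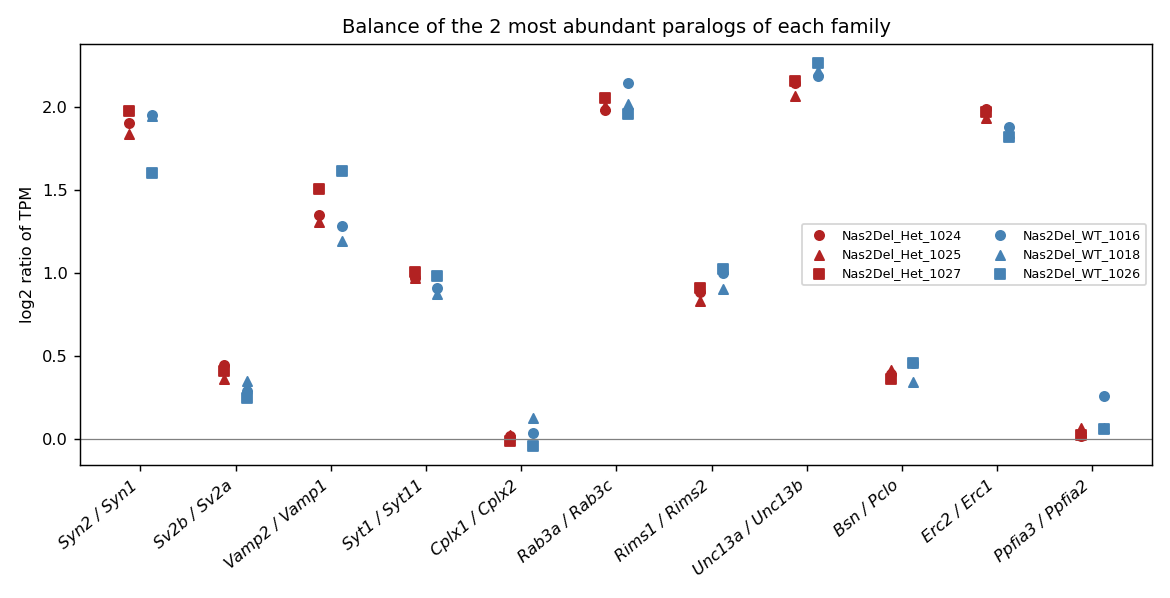
Log2 ratio of TPM between the 2 most abundant listed paralogs of 11 families in each mouse, red for Slc13a4+/- and blue for wild-type. The symbols separate for Sv2b over Sv2a, Unc13a over Unc13b and Erc2 over Erc1, by about 0.1 on the log2 scale, and overlap in the other 8.

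The deposited files list 265 transcripts of the 39 genes, and 201 of them passed the filter. None was called by edgeR, as was the case for all transcripts tested (0.0% called). At an unadjusted p under 0.05 there were 18, or 12 higher and 6 lower, beside 7.41% of all transcripts. Protein-coding transcripts of all genes had a median log2 fold change of -0.04 in this fit, and those of the 39 genes -0.04, so values near this level lie at the middle of their class. DESeq2 called 2 of the 217 transcripts with an adjusted p, Napg-209 and Dnm1-205, and 0.711% of all.

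Napg-209 is an 826-base coding transcript of the gamma-SNAP gene. It was given 223, 107 and 98.1 counts in the Slc13a4+/- mice and 0, 0 and 0 counts in the wild-type mice. The Slc13a4+/- mean was at least 38.3-fold higher than the level of 3 counts in the smallest wild-type library. It was a minor form, at 5.76%, 3.18% and 2.63% of the TPM of Napg in the Slc13a4+/- mice, and the main transcript Napg-201 held 76.9% over all mice. The edgeR adjusted p was 0.3056. An estimate of exactly 0 in 3 libraries depends on how Salmon divides reads among similar transcripts, and the part of that division was not tested.

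Dnm1 encodes dynamin 1, the neuronal GTPase that pinches vesicles off the plasma membrane. It has a pair of mutually exclusive exons of 139 coding bases, the tenth of their transcripts, which encode alternative versions of the middle domain. The pair was looked at after the transcript values had been seen. The upstream exon (of Dnm1-205 and 4 other transcripts) lies at chr2:32334682-32334820 and the downstream exon (of Dnm1-201, Dnm1-214 and Dnm1-217) at chr2:32333066-32333204, both on the minus strand of GRCm38. They differ at 39 bases (71.9% identity), which are in capitals, and they are shown because they set apart the upstream and downstream forms compared below.
Dnm1 upstream exon: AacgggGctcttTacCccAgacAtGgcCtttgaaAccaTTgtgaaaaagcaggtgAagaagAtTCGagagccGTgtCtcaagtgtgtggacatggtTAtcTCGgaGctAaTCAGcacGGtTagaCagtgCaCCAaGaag
Dnm1 downstream exon: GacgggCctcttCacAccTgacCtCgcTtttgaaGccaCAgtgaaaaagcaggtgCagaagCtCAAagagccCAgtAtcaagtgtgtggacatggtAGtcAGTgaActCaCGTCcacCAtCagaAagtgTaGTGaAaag

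Dnm1-205 held 20.8%, 22.2% and 22.1% of the TPM of Dnm1 in the Slc13a4+/- mice and 24.3%, 24.4% and 21.7% in the wild-type mice. The transcript's fitted log2 fold change came to -0.17 (SE 0.04, edgeR adjusted p = 0.6653, DESeq2 adjusted p = 0.00582). Over all transcripts with either exon, the downstream exon made up 69.8%, 67.7% and 68.1% in the Slc13a4+/- mice and 66.4%, 66.6% and 68.9% in the wild-type mice. The genotypes overlapped through Nas2Del_WT_1026, and the exact two-sided permutation test gave p = 0.3.

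Of the 201, the next smallest p after Napg-209 belonged to Rims2-211, a 1379-base coding form of Rims2. It held 20.8%, 21.9% and 22.8% of the TPM of Rims2 in the Slc13a4+/- mice and 18.6%, 19.6% and 19% in the wild-type mice. The shares did not overlap, and the transcript had a log2 fold change of 0.27 (SE 0.07, edgeR adjusted p = 0.6653). The coding transcript Unc13b-215 held 417, 564 and 503 counts against 257, 276 and 343 counts, higher in every Slc13a4+/- mouse, but made up 2.83% of the TPM of Unc13b. Erc2-213 was likewise minor, with 227, 169 and 215 counts against 136, 107 and 144 counts. Napg-206 had 85.8, 67.5 and 81.1 counts against 115, 96 and 101 counts.

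There were 79 transcripts with at least 10% of the TPM of their gene, and 77 of them came from genes with more than 1 transcript. In 13 of these 77 (16.9%) the share did not overlap between genotypes, 4 higher and 9 lower in Slc13a4+/-, beside 11.8% of such transcripts over all genes. Shares within a gene are complementary, so these are not separate results. Sv2b-201 was one of them, with 59.2%, 59.1% and 58.3% of the TPM of Sv2b against 53.8%, 56.6% and 56.5%. Syn1-201 was not, with 48.5%, 51.2% and 52.9% of Syn1 against 54.9%, 56.2% and 50.2%. In 12 genes a leading transcript held over 90% of the TPM. In others a form that is not annotated as coding took a large share: Erc1-206, annotated for nonsense-mediated decay, held 44.2% of Erc1, and the processed transcript Syn2-206 held 27.7% of Syn2.

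**Figure D5:**
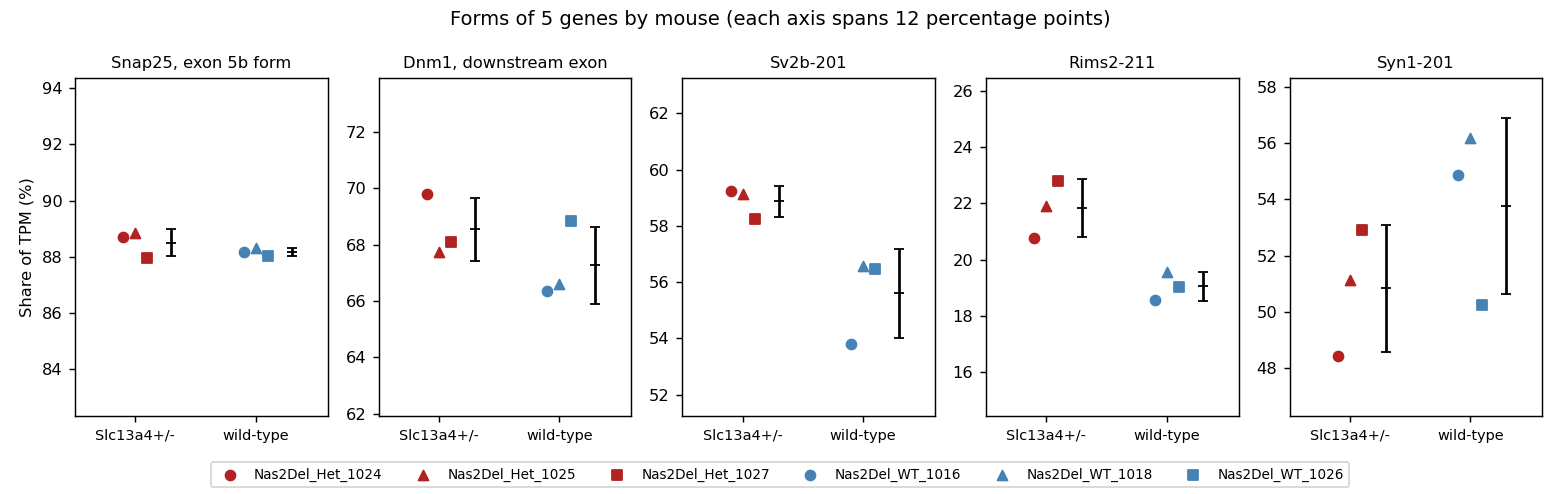
Share of TPM held by a form in each mouse, for the Snap25 exon 5b form, the Dnm1 downstream exon, Sv2b-201, Rims2-211 and Syn1-201. Red is Slc13a4+/- and blue wild-type, and bars give the mean and SD of 3 mice. The shares overlap for Snap25, Dnm1 and Syn1 and separate for Sv2b-201 and Rims2-211.

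Transcripts annotated as retained introns lay mostly above 0. Of 50 such transcripts of the 39 genes, 43 were above 0 with a median log2 fold change of 0.46, and the 7 with an unadjusted p under 0.05 were all higher. Over all genes the 12142 retained-intron transcripts had a median of 0.34, 81.1% were above 0, and 1196 of the 1248 with a p under 0.05 were higher, so the genes here had the direction of the class. Sv2b-203 held 53.1, 78.6 and 76.7 counts against 20, 25.9 and 41.9 counts. Erc2-204 held 94.5, 78 and 123 counts against 17.7, 0 and 15.8 counts. Such transcripts made up 0.51%, 0.63% and 0.54% of the counts of the 39 genes in the Slc13a4+/- mice and 0.45%, 0.54% and 0.5% in the wild-type mice, with overlap. Over all genes their share was 2.21% ± 0.22 (SD, n = 3) in Slc13a4+/- and 1.9% ± 0.11 (SD, n = 3) in wild-type mice and did not overlap.

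The rest of the release machinery was read from 7 lists of 91 other genes, of which 90 were tested. None was called by edgeR or had an unadjusted p under 0.05, 34 were above 0, and their median log2 fold change was -0.01. DESeq2 with length offsets called 0 of the 90 and gave 3 an unadjusted p under 0.05. Without Nas2Del_WT_1026 it called 6 (6.67%, beside 6.54% of all genes): Cacna1b, Ppfia1 and Stxbp5 higher, and Cltb, Slc17a6 and Syngr3 lower. The lists covered the vesicular transmitter transporters, other vesicle membrane and vesicle-bound proteins, the proton pump, other SNAREs and their regulators, other synaptotagmins, other active zone proteins and other endocytic proteins. The smallest p was that of Ppfia1, a liprin-alpha, at 40, 41.5 and 39.3 CPM against 38, 35.6 and 39.1 CPM. Slc17a6, the vesicular glutamate transporter of thalamic and other subcortical neurons, was at 135, 137 and 124 CPM against 139, 161 and 136 CPM.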

How the data were processed

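Paired-end reads of stranded, rRNA-depleted total RNA were quantified by the authors with Salmon (v1.2.0). For each transcript they deposited estimated counts and TPM with effective lengths, and the index's transcript set and genome build are not stated in the sources used here. Identifiers were matched to GENCODE M21 (GRCm38), 115973 of 117135 in 35523 genes. The other 1162 (0.62% to 0.65% of the counts) were left out. Estimated counts were summed and rounded, per gene and per transcript, so Salmon's division of reads between similar transcripts is not in the error. CPM used TMM factors, and levels of different genes were compared in the TPM deposited by the authors.

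Genotypes were compared with the quasi-likelihood test of edgeR (version 4.0.16 in R 4.3.3, default filter, 17096 genes and 54721 transcripts) with Benjamini-Hochberg adjustment over all features and a threshold of 0.1. DESeq2 1.42.0 with and without length offsets, other filters, RLE scaling, coding transcripts alone and each mouse left out were alternatives. Tested on simulated counts of 17096 genes, edgeR found 26 of 67 changes of 1.2-fold, 45 of 67 of 1.5-fold and 59 of 66 of 2-fold, and made 13 false calls. The simulated spread followed the trend of spread with level, and no simulated mouse stood apart as Nas2Del_WT_1026 did. These figures may thus overstate what edgeR finds in the real counts. Exons came from the GENCODE transcript sequences. The replicates are separate animals.

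The 39 genes and the lists were chosen with earlier results of these data known. Values in every mouse are given for Snap25, the 10 genes with the smallest p, the families whose ratio did not overlap and the 5 with the widest and the 5 with the narrowest spread. Of the transcripts, the rule took those with at least 10% of the TPM of their gene, the 8 with the smallest p and all of Snap25. Other named features were chosen after their values were seen. Python 3.11.15 was used for the other steps.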

Additional observations from a re-analysis of the deposited data

How the results depend on the processing

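No paired analysis was possible because the labels do not give the litter of any mouse. With each mouse left out, edgeR called 0 to 1 of the 39 genes and the median log2 fold change ran from -0.032 to 0.044, both upper values without Nas2Del_WT_1026. DESeq2 called 1 without Nas2Del_Het_1025 and 5 without Nas2Del_WT_1026, and 2 transcripts with size factors alone. The paralog ratios that did not overlap numbered 3 to 7 with a mouse left out, where fewer values make a separation easier, with 5 without Nas2Del_WT_1018 and 7 without Nas2Del_WT_1026. Leaving out a mouse turned the sign of 24 of the 39 log2 fold changes, 17 of them without Nas2Del_WT_1026. Among the 20 genes given with the value in every mouse it turned 8, with ranges of -0.019 to 0.022 for Snap25, -0.182 to 0.049 for Syn1, -0.061 to 0.026 for Sv2a, -0.046 to 0.073 for Erc1, -0.09 to 0.059 for Vamp2, -0.028 to 0.13 for Syn3, -0.197 to 0.071 for Pclo and -0.209 to 0.07 for Bsn. Length offsets turned Snap25 to -0.006 in DESeq2 and -0.004 in edgeR, Erc1 to 0.001 and 0.003, and Syn3 to -0.011 and -0.009. Syn3 was also at -0.022 without retained introns and at -0.015 with coding transcripts alone. None of these 8 genes was called in any of these fits, and the cause was not tested. The 5b share of Snap25 overlapped between genotypes in TPM and in counts. With 3 mice a group, changes of 1.2-fold or less would mostly be missed, and larger ones can be missed too. Slc13a4 itself, at a log2 fold change of -0.67, was not called by edgeR.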
